A study of Mus musculus with 4 samples.

Results

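RNA of 47 genes of homologous recombination, the Fanconi anaemia pathway and mismatch repair was compared between 4T1 cells of high and low mitochondrial membrane potential (MMP). The members were named by gene symbol, current or older, and all 47 were found among the 20197 genes measured. They were sorted into 9 groups by their role in repair. 4T1 is a mouse mammary carcinoma line with a strong tendency to form lung metastases, used to model triple negative disease. Both groups were wild-type 4T1 cells grown in DMEM with serum and labelled with the dye MitoSpy Red at 20 nM, which gathers in mitochondria in proportion to their membrane potential. Flow cytometry collected the brightest 5% of cells as high MMP and the dimmest 5% as low MMP, and RNA of 100000 cells was taken per sample. There were 2 libraries per group, called here high MMP 1 and 2 and low MMP 1 and 2. The study counts the libraries of a group as independent experiments, while the labels give only their numbers and name no culture or sort, so the p-values below measure the spread between these libraries.

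Homologous recombination copies an intact sister chromatid to mend a broken or collapsed replication fork, and it works in the S and G2 phases of the cell cycle. The Fanconi pathway opens crosslinks between the DNA strands by attaching ubiquitin to a pair of clamp proteins and then hands the break to the recombination machinery. Mismatch repair follows the replication fork and removes wrongly paired bases. Many genes of these pathways are transcribed as cells enter S phase, under E2F factors, and tumors unable to recombine often respond to platinum drugs and inhibitors of PARP.

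Values are reads per gene after each library was scaled to 20000000 reads, called normalized reads here. The libraries held between 22591970 and 26395015 reads assigned to genes. Of 9 epithelial and mammary carcinoma markers, 8 were in the table (all but Krt5), with summed levels of 37281 to 49831 normalized reads. Krt8 (13147 to 19554) and Krt18 (13139 to 19276) were the largest parts. Each of the 8 was above 0 in every library, but Trp63 had only 1 to 5 reads. Both high MMP libraries were above both low MMP libraries for Krt14 and Cdh3, and below them for Cdh1, with overlap for the other 5. The part of these markers in the results was not tested. Of 13 markers of leukocytes, endothelium and fibroblasts, 8 were in the table and summed to between 355 and 627, of which Pdgfra, a growth factor receptor of mesenchymal cells, made up 319 to 589. Ptprc, Cdh5 and Col1a2 were at 0 in low MMP 1 and reached at most 3.03 elsewhere. Pdgfra was lower in both high MMP libraries, and its part in the results was not tested.

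None of the 47 repair genes passed an adjusted p of 0.05 in limma, and the same held for all 20197 genes (0% called), with 0.472 as the smallest adjusted p. Before adjustment, 17 members (36.2%) were at p under 0.05 with less RNA in high MMP cells, against 6.01% of all genes. Another 2 members, Ube2t and Mus81, were at unadjusted p under 0.05 with more RNA in high MMP cells (4.26%, against 3.95% of all genes), and 28 passed in neither direction. Both high MMP libraries lay below both low MMP libraries for 23 members (48.9%, against 24.5% of all genes) and above them for 4 members, Ube2t, Mus81, Mre11a and Bard1 (8.51%, against 13.5%). The median log2 difference, high minus low MMP on the scale log2(normalized reads + 1), was -0.16 over the members and -0.04 over all genes. Less RNA per cell and fewer cells that express a gene cannot be told apart in such bulk libraries.

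By other tools, DESeq2 on the recovered read counts called 4 members (8.51%, against 0.584% of all genes), which were Zgrf1, Msh6, Uhrf1 and Dna2, all lower in high MMP cells. The quasi-likelihood test of edgeR called 0 members and 0% of all genes, with 14 members lower (3.82% of all genes) and 2 higher (3.22% of all genes) at unadjusted p under 0.05. The count of 17 lower members depended on single libraries: it was 4 without low MMP 1, 4 without low MMP 2, 15 without high MMP 1 and 19 without high MMP 2. The share of all genes that were lower at unadjusted p under 0.05 moved too, to 3.07%, 2.71%, 6.48% and 11.1% in the same order. The members' median log2 difference was -0.08 without high MMP 1 and -0.25 without high MMP 2. A single library left in a group was assumed to vary like the other group.

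**Figure D1:**
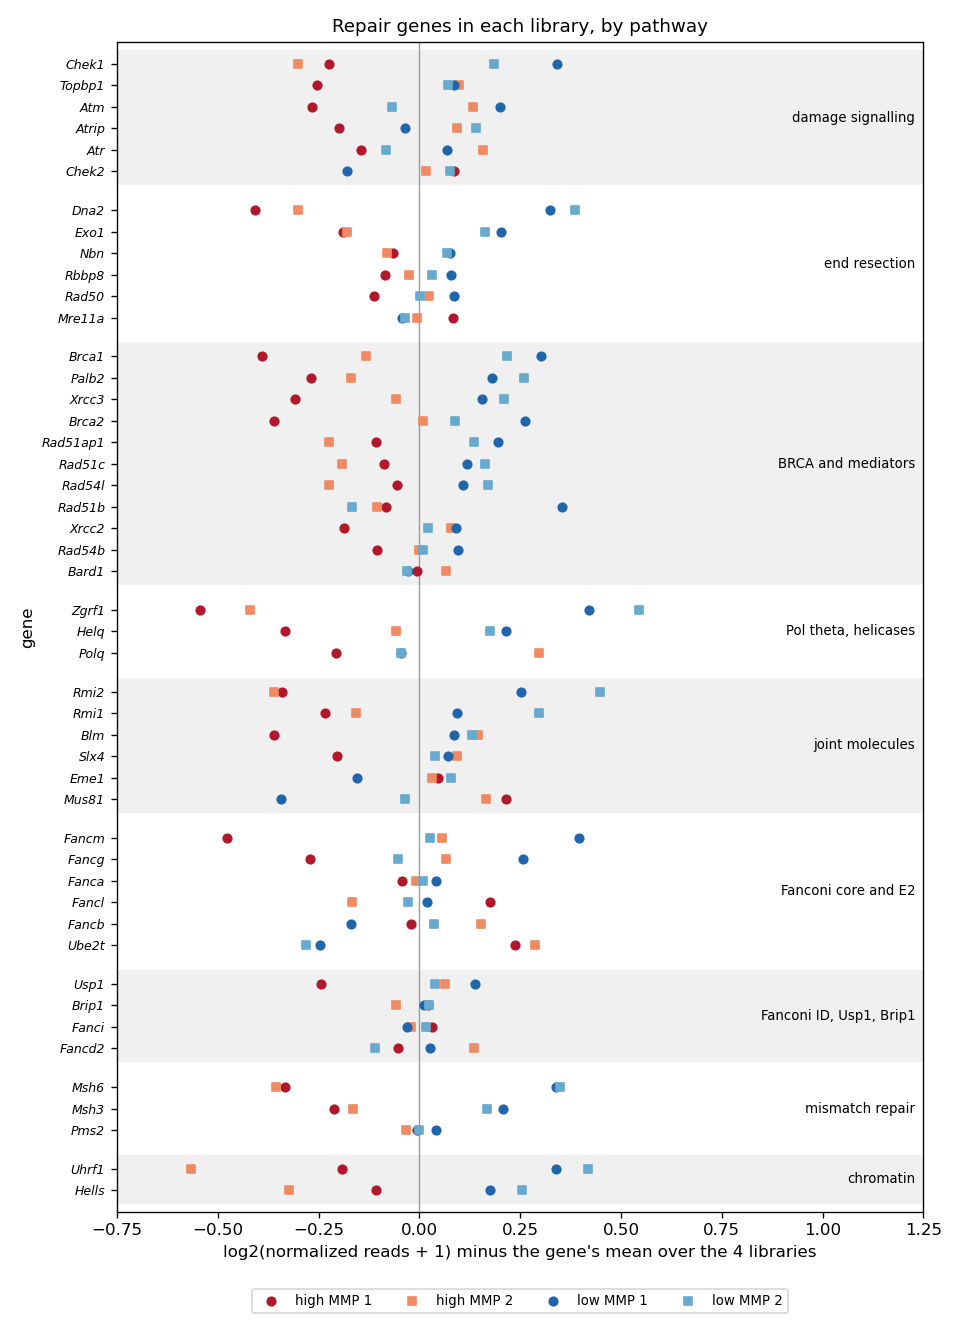
Each row is a repair gene, grouped by pathway, and each point is one library, red for high MMP and blue for low MMP; the x axis is log2(normalized reads + 1) minus the gene's mean over the 4 libraries. Zgrf1, Dna2, Msh6 and Uhrf1 show both red points left of both blue points, while Ube2t and Mus81 show the reverse.

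The promoters of the mismatch repair genes Msh6 and Msh3 and of the chromatin genes Uhrf1 and Hells, which were lower in high MMP cells, are shown for the letters by which E2F factors, the regulators of S-phase transcription, are often found (TTTGGCGC, TTTCCCGC, TTTCGCGC or TTTGCCGC, searched on both strands). Bard1 is shown beside them as a gene with a match and a log2 difference of 0.06. The stretches run from 250 bases before to 50 after the transcription start on build GRCm38.p6 of RefSeq, written 5′ to 3′ on the gene's strand, with matches in capitals. Uhrf1 has another start site, with the stretch chr17:56303087-56303386 and 0 E2F matches, and the stretch shown is the downstream one, which holds the match. In Msh3 a pair of matches on opposite strands overlap and form one capital run. Many lower members held no match: it stood in 6 of the 15 with such a stretch that were lower at unadjusted p under 0.05. Zgrf1, Dna2, Chek1, Brca1 and Palb2, which were also lower, had 0 E2F matches.
Msh6, chr17:87974800-87975099, plus strand: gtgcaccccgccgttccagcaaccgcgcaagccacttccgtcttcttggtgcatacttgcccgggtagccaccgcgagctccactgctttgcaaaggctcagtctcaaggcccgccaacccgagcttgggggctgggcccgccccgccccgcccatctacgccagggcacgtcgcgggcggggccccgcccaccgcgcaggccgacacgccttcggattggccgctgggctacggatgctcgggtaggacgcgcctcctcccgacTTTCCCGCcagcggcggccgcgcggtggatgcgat
Msh3, chr13:92354954-92355253, minus strand: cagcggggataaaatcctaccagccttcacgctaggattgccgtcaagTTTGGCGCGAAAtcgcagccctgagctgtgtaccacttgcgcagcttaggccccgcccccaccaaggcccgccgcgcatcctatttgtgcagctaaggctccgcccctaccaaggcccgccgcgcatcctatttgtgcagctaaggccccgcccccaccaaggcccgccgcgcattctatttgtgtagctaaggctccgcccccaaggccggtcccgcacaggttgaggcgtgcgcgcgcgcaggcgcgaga
Uhrf1, chr17:56304063-56304362, plus strand: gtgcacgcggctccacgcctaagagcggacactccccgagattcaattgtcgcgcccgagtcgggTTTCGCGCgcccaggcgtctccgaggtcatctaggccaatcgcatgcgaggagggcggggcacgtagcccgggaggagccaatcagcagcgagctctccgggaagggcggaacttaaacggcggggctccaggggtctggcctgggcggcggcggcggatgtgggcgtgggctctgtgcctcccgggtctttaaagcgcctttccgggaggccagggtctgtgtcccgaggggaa
Hells, chr19:38930740-38931039, plus strand: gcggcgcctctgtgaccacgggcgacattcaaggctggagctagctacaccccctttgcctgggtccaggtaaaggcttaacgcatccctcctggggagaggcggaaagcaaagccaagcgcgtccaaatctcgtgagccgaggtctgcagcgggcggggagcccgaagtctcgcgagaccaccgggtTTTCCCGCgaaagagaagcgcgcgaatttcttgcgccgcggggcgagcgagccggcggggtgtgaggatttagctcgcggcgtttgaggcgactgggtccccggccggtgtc
Bard1, chr1:71102923-71103222, minus strand: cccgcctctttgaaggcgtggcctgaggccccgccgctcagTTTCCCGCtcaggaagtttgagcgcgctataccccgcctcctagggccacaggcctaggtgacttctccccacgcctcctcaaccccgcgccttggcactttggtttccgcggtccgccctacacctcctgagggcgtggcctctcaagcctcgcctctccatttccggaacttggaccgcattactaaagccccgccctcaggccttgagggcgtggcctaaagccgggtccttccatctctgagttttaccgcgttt

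RefSeq stretches of this kind were found for 38 of the 47 members, with 43 start sites in all. An E2F match stood in 12 of these 43 stretches (27.9%), against 744 of 32851 (2.26%) over all genes. By gene, 11 of the 38 held one, namely Bard1, Brca2, Chek2, Fancg, Hells, Msh3, Msh6, Rad51c, Rmi1, Topbp1 and Uhrf1. The CCAAT box, bound by the factor NF-Y, stood in 26 of 43 member stretches (60.5%), against 37.4% of all. The element TTTGAA, the cell cycle homology region of genes expressed in G2 and mitosis, stood in 4 of 43 (9.3%), against 17.9%. A match describes the letters and does not show that a factor binds there. Ube2t, the E2 enzyme of the Fanconi pathway and the member with the largest value in favour of high MMP cells, had no E2F match in its stretch, which is shown with its 3 CCAAT boxes in capitals.
Ube2t, chr1:134962315-134962614, plus strand: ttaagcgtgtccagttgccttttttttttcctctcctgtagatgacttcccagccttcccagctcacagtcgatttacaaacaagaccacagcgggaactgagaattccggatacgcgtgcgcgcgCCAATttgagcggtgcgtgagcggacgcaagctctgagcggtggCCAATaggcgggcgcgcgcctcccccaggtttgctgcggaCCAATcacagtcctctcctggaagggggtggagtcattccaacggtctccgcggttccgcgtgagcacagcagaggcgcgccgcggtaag

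Zgrf1, a helicase that promotes strand exchange and protects cells from crosslinks, showed the largest difference of the 47 genes. Its gene (ENSMUSG00000051278) lies on chromosome 3 from 127553489 to 127618023 (GRCm38, plus strand). Its levels were 463 and 505 normalized reads in high MMP 1 and 2, and 905 and 985 in low MMP 1 and 2. The groups were far apart relative to their spread, with means of 484 ± 29.4 in high MMP and 945 ± 56.9 in low MMP cells (SD, n = 2). This was a 1.95-fold higher level in low MMP cells, a log2 difference of -0.96 (SE 0.10, limma adjusted p = 0.472), and the DESeq2 adjusted p was 3.65e-05. Helq, a helicase that acts on stalled forks, was at 505 and 612 in high MMP and 738 and 719 in low MMP libraries (log2 difference -0.39, SE 0.12). Polq encodes DNA polymerase theta, which joins resected ends through short homologies. For Polq the high MMP libraries, at 480 and 681, lay on either side of both low MMP libraries, at 537 and 536. Of these 3 genes, 2 were therefore lower at unadjusted p under 0.05.

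In mismatch repair, Msh6 was the second member by p. MSH6 recognises single mismatches and small loops, and its gene (ENSMUSG00000005370) lies on chromosome 17 from 87975062 to 87990892 (plus strand). Msh6 stood at 2692 and 2652 normalized reads in high MMP libraries and at 4293 and 4316 in low MMP libraries, so that replicates nearly coincided within each group. Its level was 1.61-fold higher in low MMP cells, with a log2 difference of -0.69 (SE 0.07, limma adjusted p = 0.472; DESeq2 adjusted p = 0.00148). Msh3, whose product recognises larger loops, was at 475 and 491 in high MMP and 636 and 619 in low MMP libraries. The groups of Msh3 did not overlap, and the log2 difference was -0.38 (SE 0.08). Pms2, the endonuclease subunit that acts after mismatch recognition, was at 511 and 501 in high MMP and 528 and 513 in low MMP libraries. Its log2 difference was -0.04 with a 95% interval of -0.26 to 0.18.

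The chromatin genes Uhrf1 and Hells were both lower in high MMP cells at unadjusted p under 0.05. UHRF1 reads hemimethylated DNA behind the fork and brings in the maintenance methyltransferase, and HELLS is a remodeler that aids methylation of packed DNA. Uhrf1 (ENSMUSG00000001228), on chromosome 17 from 56303321 to 56323486 (plus strand), was at 5813 and 4485 normalized reads in high MMP and 8391 and 8863 in low MMP libraries. High MMP 2 was the lowest library, and both high MMP libraries were below both low MMP libraries. The log2 difference was -0.76 (SE 0.16, limma adjusted p = 0.472; DESeq2 adjusted p = 0.00482), or 1.68-fold more in low MMP cells. Hells was at 4539 and 3910 in high MMP and 5524 and 5830 in low MMP libraries (log2 difference -0.43, SE 0.11). Per length, Uhrf1 was the most abundant member, with 1617 normalized reads per kilobase of exon, followed by Usp1 at 1053 and Msh6 at 803, while Rad51b at 17.9 and Rmi2 at 20.8 were the least abundant.

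End resection trims the 5′ strand at a break so that recombination can begin. Dna2, one of the nucleases of long-range resection (ENSMUSG00000036875), lies on chromosome 10 from 62947026 to 62974185 (plus strand). Its levels were 369 and 397 in high MMP and 614 and 641 in low MMP libraries. Neither group's libraries came near the other group's, and the log2 difference was -0.71 (SE 0.09, limma adjusted p = 0.472; DESeq2 adjusted p = 0.03), a 1.64-fold higher level in low MMP cells. Exo1, the other nuclease of this step and of mismatch removal, was at 1181 and 1190 in high MMP and 1551 and 1509 in low MMP libraries (log2 difference -0.37, SE 0.07). Nbn, Rad50 and Mre11a encode the complex that first binds the break, and Rbbp8 the factor that starts the cut. Nbn was at 590 and 584 in high MMP and 650 and 647 in low MMP libraries, a separation of the groups with a log2 difference of -0.14 (SE 0.08). Rad50 was at 2316 and 2546 in high MMP and 2655 and 2504 in low MMP libraries, with overlap (log2 difference -0.09). For Mre11a the high MMP libraries, at 2793 and 2623, were above the low MMP libraries, at 2559 and 2573 (log2 difference 0.08), and for Rbbp8 the log2 difference was -0.11. None of these 4 was at unadjusted p under 0.05.

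Of the 6 damage signalling genes, Chek1 alone was at unadjusted p under 0.05. CHK1 is the effector kinase that ATR activates at stalled forks. Chek1 was at 2726 and 2586 normalized reads in high MMP and 4038 and 3621 in low MMP libraries, without overlap, and was 1.44-fold higher in low MMP cells (log2 difference -0.53, SE 0.10, limma adjusted p = 0.472). The other 5 genes had log2 differences from -0.16 to 0.10. Atr, the sensor kinase at single-stranded DNA, was at 1197 and 1476 in high MMP and 1389 and 1251 in low MMP libraries, so the high MMP libraries held both the lowest and the highest value. Its log2 difference was 0.01, with a 95% interval of -0.36 to 0.38. Atrip, the partner of ATR, was at 468 and 574 in high MMP and 525 and 593 in low MMP libraries, again with overlap (log2 difference -0.11, SE 0.14), and it shares 16.0% of its exon bases with Trex1 on the same strand. Topbp1, the activator of ATR, was at 5856 in high MMP 1 and between 7335 and 7476 in the other 3 libraries, so that high MMP 1 alone was low (log2 difference -0.16, SE 0.15). Atm, the kinase of double-strand breaks, was at 863 and 1138 in high MMP and 1193 and 991 in low MMP libraries (log2 difference -0.13, SE 0.18). Chek2, the effector of ATM, was at 379 and 361 in high MMP and 315 and 376 in low MMP libraries (log2 difference 0.10, SE 0.13). Neither separated the groups. Without high MMP 1 the median of these 6 genes turned from -0.12 to 0.05, and without high MMP 2 it was -0.29.

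The BRCA genes and the mediators of strand exchange formed the largest group, with 11 members and a median log2 difference of -0.28. At unadjusted p under 0.05, 6 of the 11 were lower in high MMP cells and 0 were higher. Brca1, which opens the way to recombination with BARD1, was at 1056 and 1263 in high MMP and 1705 and 1609 in low MMP libraries. Its levels did not overlap between groups, with a log2 difference of -0.52 (SE 0.12, limma adjusted p = 0.472) and a 1.43-fold higher level in low MMP cells. Bard1, which encodes the obligate partner of BRCA1, stood at 1024 and 1077 in high MMP and 1010 and 1007 in low MMP libraries, a log2 difference of 0.06 with a 95% interval of -0.15 to 0.27. The difference between these partners was not tested. Palb2, the bridge between BRCA1 and BRCA2, was at 280 and 300 in high MMP and 382 and 404 in low MMP libraries (log2 difference -0.44, SE 0.10). Brca2, which helps to start strand exchange, was at 856 and 1106 in high MMP and 1317 and 1169 in low MMP libraries, where the nearest libraries of the groups were close together (log2 difference -0.35, SE 0.16, limma adjusted p = 0.596).

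Among the other mediators of strand exchange, Rad51ap1 (-0.33), Rad54l (-0.28), Rad51c (-0.28) and Xrcc3 (-0.37) were lower at unadjusted p under 0.05 on the log2 scale. Rad51ap1 was at 503 and 464 in high MMP and 621 and 596 in low MMP libraries, Rad51c at 264 and 246 against 305 and 315, and Xrcc3 at 192 and 228 against 265 and 275, with no overlap for any of them. RAD51AP1 and RAD54 aid the pairing of strands, and RAD51C and XRCC3 work together as a complex in recombination. Rad54l was at 661 and 588 in high MMP and 741 and 774 in low MMP libraries, without overlap. Rad54b, its relative, was at 580 and 623 in high MMP and 667 and 628 in low MMP libraries, with 623 and 628 as the nearest values (log2 difference -0.11, 95% interval -0.35 to 0.14). Xrcc2 (-0.11) and Rad51b (-0.19) did not pass. Rad51b was low, with 62.9 and 61.9 in high MMP and 85.4 and 59.3 in low MMP libraries, and its 95% interval ran from -0.84 to 0.47. Rad54l shares 15.4% of its exon bases with Lrrc41 on the opposite strand, and Rad54b shares 35.8% with Fsbp on its own strand. Whether reads there count for either gene or for neither is not given in the sources used here.

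**Figure D2:**
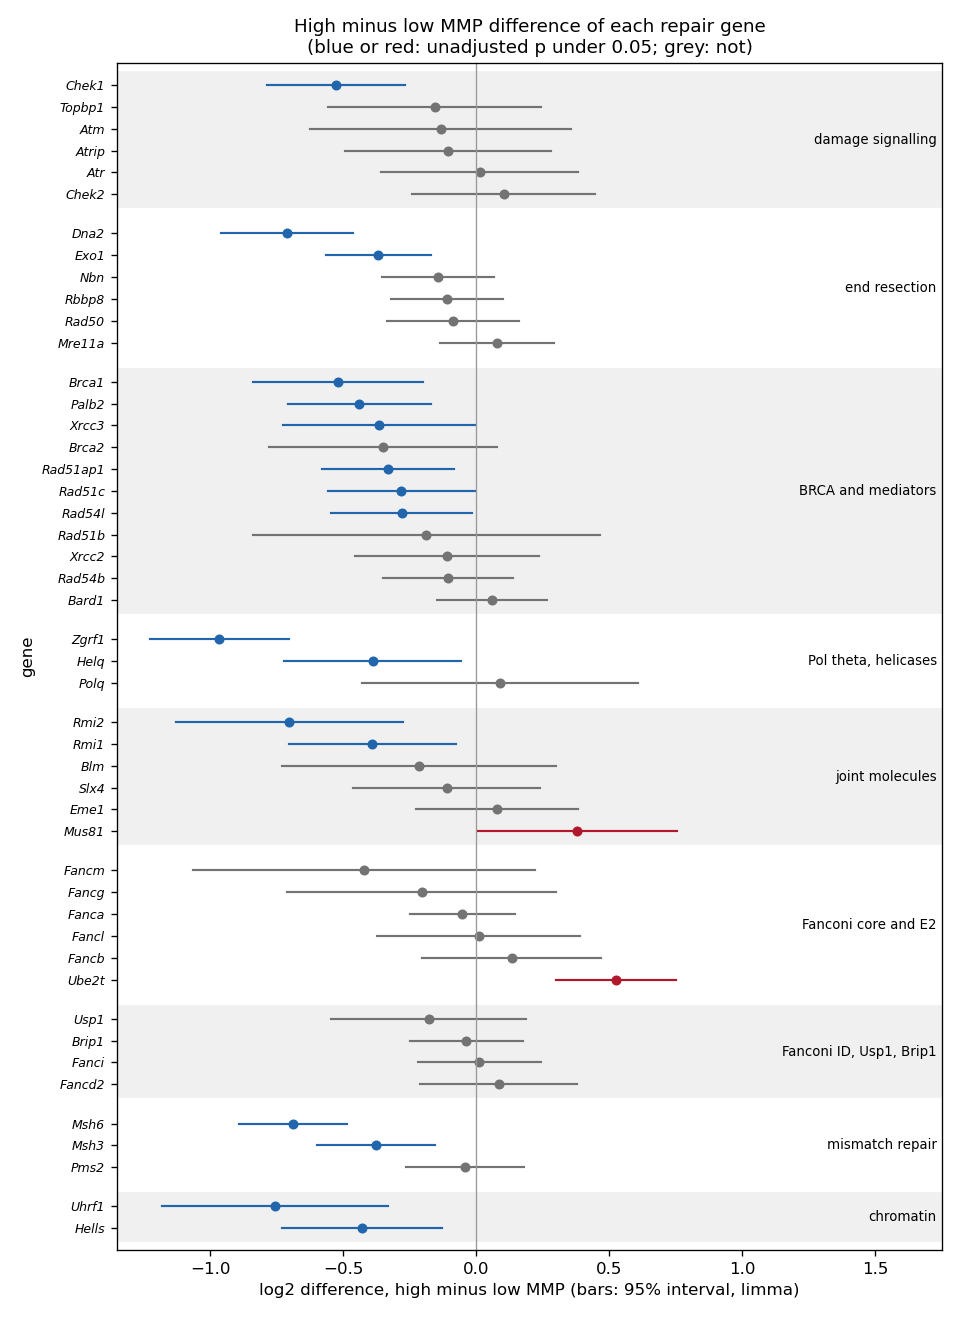
Each row is a repair gene with its log2 difference, high minus low MMP (point), and the 95% interval from limma (line), grouped by pathway; blue and red mark unadjusted p under 0.05, lower and higher in high MMP cells. Values run from -0.96 for Zgrf1 to 0.53 for Ube2t, and 35 of the 47 points (74.5%, against 58.6% of all genes) lie left of 0.

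Joint molecules, the linked DNA that recombination leaves, are taken apart by the BLM, TOP3A, RMI1 and RMI2 complex or cut by nucleases. Rmi2 was at 71.2 and 70.3 normalized reads in high MMP and 108 and 124 in low MMP libraries, and Rmi1 was at 290 and 306 in high MMP and 364 and 420 in low MMP libraries. Both subunits were lower in each high MMP library than in each low MMP library, with log2 differences of -0.70 (SE 0.16) and -0.39 (SE 0.12). Rmi1 shares 5.02% of its exon bases with Hnrnpk on the opposite strand, a gene with a mean of 20628 normalized reads. Blm, the helicase of the complex, was at 1033 and 1466 in high MMP and 1406 and 1451 in low MMP libraries, so high MMP 1 stood apart and high MMP 2 was the highest (log2 difference -0.21, SE 0.19). Mus81, a nuclease subunit, ran the other way, at 427 and 413 in high MMP and 289 and 359 in low MMP libraries. Its log2 difference was 0.38 (SE 0.14, limma adjusted p = 0.497), and 4.85% of its exon bases are shared with Efemp2 on the opposite strand. Its partner Eme1 was at 0.08 and the nuclease scaffold Slx4 at -0.11 on the log2 scale. Without high MMP 1 the median of these 6 genes turned from -0.16 to 0.04, and without high MMP 2 it was -0.34.

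The genes sorted into the Fanconi groups, the core with its E2 and the genes downstream of it, showed differences in both directions around 0. The BRCA genes and mediators were grouped apart from them. In the core complex and its E2, with 6 members, the median log2 difference was -0.02, which turned to 0.02 under median-of-ratios scaling. Ube2t (ENSMUSG00000026429), on chromosome 1 from 134962565 to 134974162 (plus strand), was at 595 and 616 in high MMP and 425 and 415 in low MMP libraries. Both high MMP libraries were above both low MMP libraries, 1.44-fold on average, with a log2 difference of 0.53 (SE 0.08, limma adjusted p = 0.472; DESeq2 adjusted p = 0.128). The other 5 core genes did not pass an unadjusted p of 0.05. Fancm, the translocase that anchors the core complex, was at 423 and 613 in high MMP and 775 and 600 in low MMP libraries, with overlap (log2 difference -0.42, SE 0.24). Fancl, the ubiquitin ligase that works with UBE2T, was at 853 and 672 in high MMP and 765 and 741 in low MMP libraries, and its log2 difference was 0.01 (95% interval -0.37 to 0.39). Fancb, a subunit of the core, was at 445 and 501 in high MMP and 401 and 462 in low MMP libraries (log2 difference 0.13, SE 0.12). Fanca and Fancg, which also encode subunits of the core, were at -0.05 and -0.21 on the log2 scale. Fancl shares 13.7% of its exon bases with Vrk2 and Fanca 10.5% with Zfp276, both on the opposite strand.

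Downstream of the core, none of 4 genes was at unadjusted p under 0.05, and their groups overlapped in each case. FANCD2 and FANCI form the clamp that the core marks with ubiquitin. Fancd2 was at 787 and 896 in high MMP and 830 and 755 in low MMP libraries (95% interval of the log2 difference -0.21 to 0.38). Fanci was at 467 and 450 in high MMP and 447 and 462 in low MMP libraries (95% interval -0.22 to 0.24). Of Fanci's exon bases, 16.0% are shared with Polg on the opposite strand. Usp1, which takes the ubiquitin off again, was at 3304 and 4091 in high MMP and 4308 and 4021 in low MMP libraries (95% interval -0.55 to 0.19). Brip1, a helicase that binds BRCA1, was at 864 and 818 in high MMP and 859 and 867 in low MMP libraries (95% interval -0.25 to 0.18). The median of these 4 genes was -0.01, and it was 0.03 under median-of-ratios scaling.

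Other genes of the same pathways, 64 of 65 listed symbols, had a median log2 difference of -0.08. In limma 0 of the 64 passed adjustment (0% of all genes). At unadjusted p under 0.05, 6 were lower and 3 were higher in high MMP cells. These shares, 9.38% and 4.69%, were near those of all genes, 6.01% and 3.95%. DESeq2 called 1, Rpa2 (1.56%, against 0.584% of all genes). The lower ones were Clspn (-0.56), the mediator of CHK1 activation; Rpa2 (-0.65), a subunit of the complex that coats single-stranded DNA; Lig1 (-0.51), the ligase of Okazaki fragments; Rnf168 (-0.49), a ubiquitin ligase at breaks; Etaa1 (-0.30), an activator of ATR; and Pcna (-0.46), the replication clamp. The higher ones were Polh (0.41), a polymerase that copies past damage, Faap100 (0.29), a Fanconi core subunit, and Gen1 (0.24), a nuclease of Holliday junctions. Among 16 genes of end joining, the repair route that needs no template, 1 was lower and 1 higher at unadjusted p under 0.05. Each was 6.25% of the list, against 6.01% lower and 3.95% higher over all genes. The 2 genes were Tdp2 (-0.30), which frees ends from topoisomerase, and Lig4 (0.34), the ligase of this route, and the median over the 16 genes was -0.02.

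Since several repair genes are transcribed with S phase, cell cycle lists were measured beside them. The S-phase list of the Seurat package holds 43 genes, 6 of which are repair members (Rad51ap1, Usp1, Uhrf1, Hells, Blm and Exo1). Over the other 37 genes the median log2 difference was -0.33, with 19 lower and 0 higher in high MMP cells at unadjusted p under 0.05. These were 51.4% and 0%, against 6.01% and 3.95% of all genes. The G2/M list of 54 genes, with 0 repair members, had a median of 0.32, with 0 lower and 30 higher (0% and 55.6%). Of the 41 repair members outside the S-phase list, 13 were lower and 2 higher at unadjusted p under 0.05, with a median of -0.11. The lower ones were 31.7%, against 6.01% of all genes. The higher ones were 4.88%, near the 3.95% of all genes. By library, the medians of the S-phase list without repair members, centred on each gene's mean, were -0.03 and -0.32 in high MMP 1 and 2 and 0.19 and 0.19 in low MMP 1 and 2. Its median log2 difference was -0.48 without high MMP 1 and -0.21 without high MMP 2. The repair members had -0.19 and -0.02 in high MMP 1 and 2 and 0.09 and 0.07 in low MMP 1 and 2. High MMP 2 was thus the lowest library for the S-phase list and high MMP 1 the lowest for the repair members. The part of the cell cycle in the repair values was not tested.

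**Figure D3:**
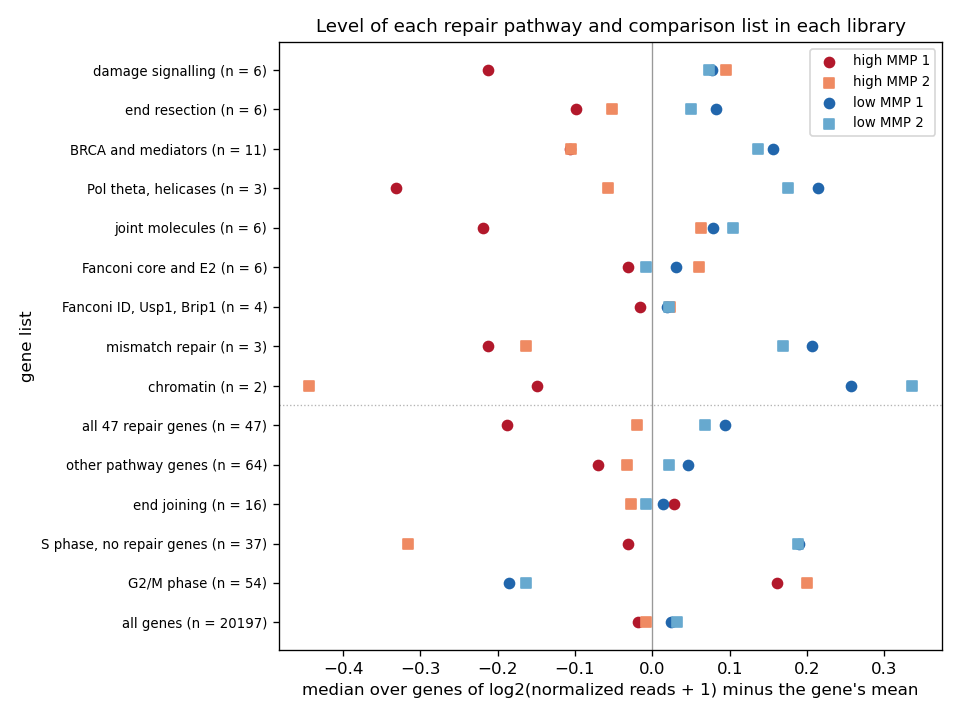
Each point is the median, over the genes of a list, of log2(normalized reads + 1) minus the gene's mean over the 4 libraries, for one library (red high MMP, blue low MMP). The S-phase and G2/M lists lie on opposite sides of 0 in high MMP cells, and the repair members lie between -0.19 in high MMP 1 and 0.09 in low MMP 1.

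The replicates were compared over the members to gauge the spread behind these values. The SD of the 47 log2 differences was 0.211 between the high MMP libraries and 0.157 between the low MMP libraries, each a difference of single libraries. It was 0.293 between the group means. Each group mean averages 2 libraries and so varies less than a single library, so these SDs are not directly comparable. Longer members tended to be lower in high MMP 1 than in high MMP 2 (Spearman's rho of the difference with exon length -0.41 over 47 members, -0.34 over 11364 protein-coding genes) and higher in low MMP 1 than in low MMP 2 (0.28 and 0.25). These are correlations across genes of the same libraries, not independent replicates. Of the 12 members with at least 8500 bases of exon, all 12 were lower in high MMP 1 than in high MMP 2, and 10 were higher in low MMP 1 than in low MMP 2. Between the groups, high minus low, the rho was -0.13 over the members and -0.02 over the protein-coding genes. The part of transcript length in the member values was not tested.

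**Figure D4:**
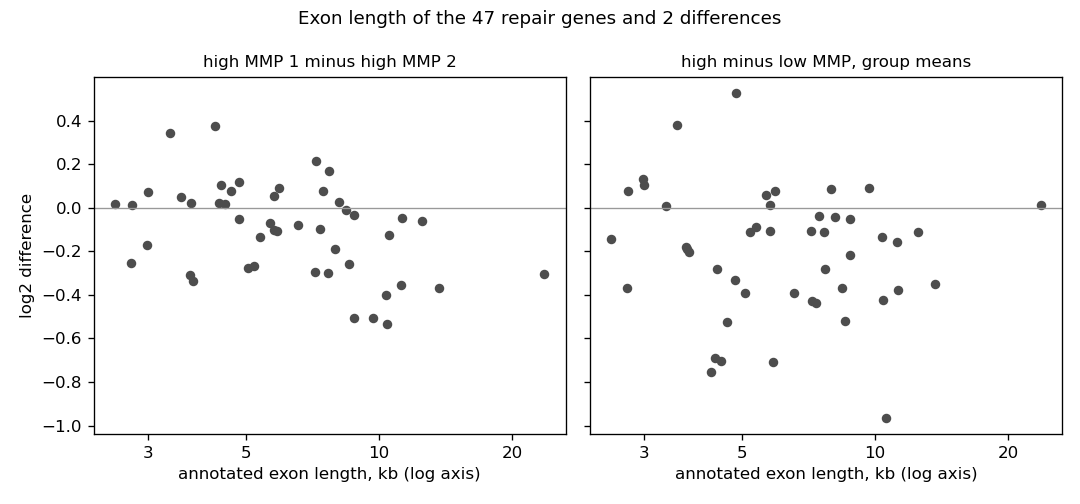
Each point is a repair gene, with annotated exon length in kilobases (log axis) against the log2 difference between the high MMP libraries (left) and between the group means (right). The left panel slopes down with length (rho -0.41), and the right panel shows less of a slope (rho -0.13).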

How the data were processed

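RNA-seq of 4 libraries, 2 of high MMP and 2 of low MMP 4T1 cells, was analysed, grouped by sample title. From each sample 200 ng of RNA entered a stranded mRNA library preparation. The submitters' processing notes name STAR, HTSeq and build GRCm38 (mm10), and versions, annotation and the strand setting of counting are not given in the sources used here. The deposited values are a normalized signal per gene, which the authors made by dividing the reads of each library by its total, and genes above 0 in fewer than 2 samples had been removed. Each column sums to 20000000, and dividing by the value of 1 read gave whole reads for 100.0% of values (tolerance 0.05). The table held 0 columns of other samples.

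log2(value + 1) was tested with limma 3.58.1 (trend on expression, group as the factor) in R 4.3.3, adjusted by Benjamini-Hochberg over 20197 genes at 0.05. With 2 against 2 libraries an exact permutation test cannot go below a two-sided p of 0.333. A fold on this scale understates the change of low genes. Recovered reads were tested with edgeR 4.0.16 (quasi-likelihood) and DESeq2 1.42.0 as alternatives, beside other pseudocounts, filters, scalings, a replicate block and leaving out each library. The code was checked on simulated data. Symbols came from GENCODE M21 for 19993 identifiers and promoters from RefSeq. The members and lists were chosen with earlier results of these data known. Values per library were set by rule for the 12 members of smallest p, the smallest p of each group, the 3 smallest in the direction of few members, and fixed partner pairs; values of other members were added after they were seen. Genes outside the members that the rule also held are not reported here.

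No source used here states that a number marks a shared sort. Deviations of same-numbered libraries from their group means correlated at -0.42 over 12902 genes, so same-numbered libraries did not shift in the same direction. They tended to shift in opposite directions, and the cause of this was not tested. The numbers were not used as pairs in the main tests of the report.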

Additional observations from a re-analysis of the deposited data

How the results depend on the processing

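With the labelled numbers as a replicate block, 10 members were lower and 1 higher at unadjusted p under 0.05 in limma (3.09% and 2.13% of all genes). In edgeR with this block, 9 members were lower and 2 higher (2.57% and 1.98%). It called 106 genes (0.525% of all genes), of which 1, Zgrf1, was a member. With the numbers crossed, a choice made after seeing the data, edgeR called 733 genes (3.63% of all genes). These included 12 of the 47 members and 6 of the 64 other pathway genes. DESeq2 called 118 genes (0.584% of all genes), including 4 members (8.51%) and 1 other pathway gene (1.56%). At unadjusted p under 0.05 it gave 10 members lower and 2 higher (1.44% and 1.83% of all genes). Limma without a trend gave 11 lower and 1 higher (5.93% and 3.87%). In limma, 0 genes passed adjustment under each block, pseudocount, filter, scaling and left-out library. Leaving out each library in turn gave 4 to 19 members lower and 1 to 2 higher at unadjusted p under 0.05 (2.71% to 11.1% and 1.37% to 5.47% of all genes), a member median from -0.25 to -0.076, and an S-phase median from -0.48 to -0.21.

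Of 374 values of 22 named genes under 17 alternatives, 352 kept direction and call, 16 were called only in the alternative and 6 turned sign, all when a library was left out. Those 6 came from 4 genes: Fancd2 (-0.0094 to 0.18), Fanci (-0.014 to 0.038), Atr (-0.14 to 0.16) and Atrip (-0.25 to 0.041). By leaving out a library the joint molecule median ran from -0.34 to 0.038 and the damage signalling median from -0.29 to 0.054. The Fanconi core median turned from -0.02 to 0.019 (median-of-ratios), 0.0054 (quantile), 0.021 (edgeR), 0.016 (edgeR, block), 0.017 (edgeR, crossed) and 0.025 (DESeq2). The median of Fancd2, Fanci, Usp1 and Brip1 turned from -0.01 to 0.029, 0.028, 0.025, 0.025, 0.025 and 0.030 in the same order. The causes of these changes were not tested. With 2 libraries per group, the 95% interval of a log2 difference ran from -0.89 to -0.49 for Msh6 and from -1.06 to 0.22 for Fancm, whose replicates lay further apart.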

Other observations

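The E2F letters searched in the promoters stood in 6 of the 15 members with a promoter that were lower at unadjusted p under 0.05 (40.0%) and in 5 of the 23 other members with one (21.7%). TTTGAA stood in 0 of the 15 and in 4 of the 23 (17.4%). The CCAAT box stood in 9 of the 15 (60.0%) and in 13 of the 23 (56.5%). A gene counted if any of its start sites held the letters. Rad51c, Rad54l, Rmi1 and Uhrf1 of the lower members, and Rad51b of the others, had a further start site. For Rmi1 and Uhrf1 the E2F match stood only at the downstream site. The part of these unequal numbers of start sites in the shares was not tested.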
